A study of Mus musculus with 10 samples.

Results

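RNA sequencing of subcutaneous (s.c.) Panc02 tumors was read for 10 inflammatory genes: the interleukin-1 (IL-1) family ligands Il1a, Il1b, Il18 and Il33, the receptor antagonist Il1rn, the signalling receptor Il1r1, the IL-6 family ligands Il6, Lif and Osm, and Tnf. They were chosen by symbol, and all 10 had a row among the 37417 genes of the count table. Panc02 is a mouse pancreatic ductal adenocarcinoma cell line. It had been given a doxycycline-inducible Cas9 by lentivirus selected with blasticidin, and then, under puromycin selection, either a nontargeting guide RNA (sgNT, 5 tumors) or one (sgCda, 5 tumors) against Cda, which encodes cytidine deaminase. Cas9 was induced with doxycycline in both before they grew in the flank of wild type C57BL/6J mice until collection on day 16. The labels give the mice an age of 12 weeks, whereas the paper describes its mice as female and somewhat younger. The sources used here do not settle whether the 12 weeks are the age at injection or at collection. The edit was carried by the injected cells and not by the host, and no drug treatment is given for either group. The labels do not say whether the cells were a pool or a clone. The paper describes isolation of single-cell clones by limiting dilution and kept a pool of clones for survival experiments only. If each group grew from a single clone, traits of the clone and of the guide cannot be told apart. Each library held RNA of a whole tumor, in which fewer cells of a type and less RNA per cell cannot be told apart.

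IL-1 alpha and IL-1 beta bind the same receptor, Il1r1, which then recruits the accessory chain Il1rap and signals through Myd88 to NF-kappaB. Il1rn occupies that receptor without signalling, and IL-18 and IL-33 use related receptors of their own. IL-6, Lif and Osm all signal through the shared chain gp130, encoded by Il6st, to Jak kinases and Stat3, while Tnf acts through Tnfrsf1a and Tnfrsf1b. In tumors these cytokines are made by macrophages, neutrophils, fibroblasts, endothelial cells and cancer cells in proportions that differ between models.

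The guides that set the groups apart are given first, 5′ to 3′, with the 3 bases of the genome that follow the targeted sequence (the PAM) in capitals.
sgCda: tccagaaggccatctccgaaGGG
sgNT: gaacagtcgcgtttgcgact
The 20 bases of the sgCda guide lay at chr4:138351219-138351238 (GRCm38) in coding sequence of exon 2 of the 4 exons of Cda. The sgCda guide matched 1 of the 2 annotated Cda transcripts and the sgNT guide 0. The next 5 sequences are the 250 bases before the RefSeq transcription start of Il33 and Il18, whose levels were correlated across tumors, of Il1a and Il1b, which were so as deviations from their group means, and of Il6, the promoter that held the most of the motifs searched. They run 5′ to 3′ on the strand of the gene, in RefSeq's GRCm38.p6 build, and capitals mark matches to the motifs.
Il33, chr19:29924863-29925112, + strand: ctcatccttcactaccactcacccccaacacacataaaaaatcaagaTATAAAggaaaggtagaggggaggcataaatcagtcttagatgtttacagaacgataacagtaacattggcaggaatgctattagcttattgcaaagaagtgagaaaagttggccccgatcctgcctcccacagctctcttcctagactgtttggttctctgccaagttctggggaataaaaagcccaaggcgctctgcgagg
Il18, chr9:50554450-50554699, + strand: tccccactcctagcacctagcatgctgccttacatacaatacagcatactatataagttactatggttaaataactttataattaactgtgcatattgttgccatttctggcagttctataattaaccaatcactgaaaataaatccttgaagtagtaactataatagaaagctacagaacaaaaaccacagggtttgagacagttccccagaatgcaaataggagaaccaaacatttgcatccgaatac
Il1a, chr2:129309973-129310222, - strand: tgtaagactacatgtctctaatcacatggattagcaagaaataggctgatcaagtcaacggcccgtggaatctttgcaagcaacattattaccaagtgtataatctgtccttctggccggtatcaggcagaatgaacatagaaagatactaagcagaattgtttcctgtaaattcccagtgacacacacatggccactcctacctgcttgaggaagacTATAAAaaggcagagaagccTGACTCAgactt
Il1b, chr2:129371140-129371389, - strand: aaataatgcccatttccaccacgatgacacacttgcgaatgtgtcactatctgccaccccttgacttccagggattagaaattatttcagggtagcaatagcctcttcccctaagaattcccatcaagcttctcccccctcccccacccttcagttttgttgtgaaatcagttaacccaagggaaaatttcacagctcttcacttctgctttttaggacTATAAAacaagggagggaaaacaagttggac
Il6, chr5:30012864-30013113, + strand: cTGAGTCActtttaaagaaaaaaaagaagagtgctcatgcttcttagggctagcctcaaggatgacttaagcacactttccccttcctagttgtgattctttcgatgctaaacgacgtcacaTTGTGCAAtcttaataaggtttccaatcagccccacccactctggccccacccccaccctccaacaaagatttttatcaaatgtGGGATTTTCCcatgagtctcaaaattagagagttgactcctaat
The motifs searched were the kappaB consensus, AP-1 (TGANTCA), C/EBP (TTNNGCAA) and STAT (TTCNNNGAA) on both strands, and TATAAA on the strand of the gene. Of the 9 genes with a promoter in the table, the kappaB consensus occurred in 1 (Il6), against 3.90% of 32851 promoters of the same length. AP-1 occurred in 4 (Il1a, Il1rn, Il6 and Lif, against 6.75% of all promoters), C/EBP in 2 (Il1r1 and Il6, against 9.56%), STAT in 0 (against 7.02%) and TATAAA in 4 (Il1a, Il1b, Il33 and Tnf, against 7.59%). In Il1a, Il1b and Tnf, TATAAA began at base −32, −31 and −29 from the start, whereas in Il33 it began at base −203. Il18, of the other 9 genes the one most correlated with Il33, held 0 of the 5 motifs, and its RefSeq start lay at base −127 from the start in the GENCODE annotation. A match describes letters and not a bound site, and the lack of one says nothing of the factor.

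Assigned counts ranged from 28051907 to 39484964 per tumor, so 3 counts corresponded to 0.0760 to 0.107 CPM relative to the assigned counts alone. All other CPM are counts relative to the library size, scaled by trimmed mean of M values (TMM). The targeted gene, Cda, stood at 10.1, 11.7, 12.8, 14.7 and 11.1 CPM in sgNT replicates 1 to 5 and at 8.34, 8.43, 12.1, 7.47 and 12.5 CPM in sgCda replicates 1 to 5. The groups overlapped (log2 fold change −0.30, SE 0.17, unadjusted p = 0.0963, edgeR quasi-likelihood test), and whole-tumor counts of an edited gene do not show whether its protein is intact. The authors checked the targeting in the cells by quantitative PCR and western blotting. In sorted cells of this tumor model they also reported Cda expression in endothelial cells and fibroblasts. The part of host cells in the Cda counts was not tested. The largest axis of variation (40.7% of the variance over all genes) ran from sgCda 4 to sgCda 3 and did not separate the groups. sgCda 4 also had the highest share of mitochondrial counts, 5.82% against 3.47% to 3.81% in the other tumors. It had the fewest assigned counts and the highest share of reads without a feature, 18.4% against 10.3% to 14.9% in the other tumors. The part of these library traits in its cytokine levels was not tested.

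Levels of different genes were compared per kb of exon, with the exons of all annotated transcripts of a gene merged. The order depends on that choice of length. On this scale Il33 was the most abundant of the 10 genes, with a mean of 52.0 CPM per kb, above 93.8% of the genes tested. Il18 followed at 15.03, Il1b at 11.6, Tnf at 8.76, Il1r1 at 8.06 and Il1rn at 5.38 CPM per kb. Osm (1.51), Il1a (1.25), Lif (0.963) and Il6 (0.404) formed a lower tier, and Il6, the founding cytokine of its family, lay above only 12.4% of the genes tested. Neighbours in that order had ranges that overlapped over the 10 tumors, except Il1rn and Osm. Nevertheless, within single tumors Il33 exceeded Il18 in 10 of 10, Il1rn exceeded Osm in 10 of 10 and Lif exceeded Il6 in 10 of 10, whereas Tnf exceeded Il1r1 in 5 of 10. Il1a was the most variable gene (7.37 times from the lowest to the highest tumor), before Il33 (4.55 times), and Il1r1 the least (1.601 times).

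**Figure D1:**
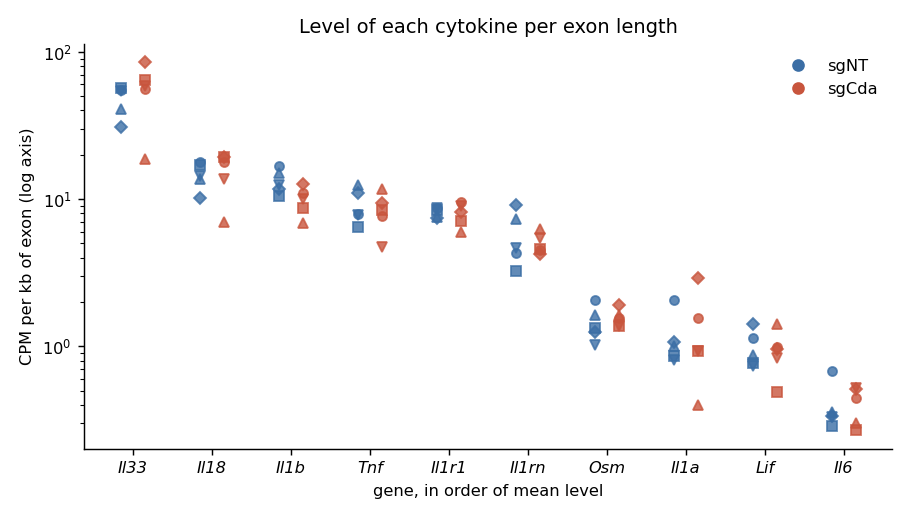
Level of each of the 10 genes in CPM per kb of exon on a log axis, with 1 point per tumor (blue sgNT, red sgCda, symbols by replicate number as in the plot of CPM by tumor). Il33 leads with a mean of 52.0 CPM per kb, Il6 is lowest with 0.404, and the blue and red points of every gene overlap.

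The comparison of sgCda with sgNT asked whether targeting of Cda in the cancer cells went with another level of these cytokines in the tumor. None of the 10 genes differed after adjustment, 5 stood higher and 5 lower, and their median log2 fold change was −0.01 against 0.01 over all genes tested. The largest difference relative to its error was that of Il1b, the main secreted IL-1 agonist, which was lower in sgCda tumors. With edgeR's quasi-likelihood test and Benjamini-Hochberg adjustment, 0 of the 10 genes passed an adjusted p of 0.05, as did 0% of the 15299 genes tested (smallest adjusted p 0.9996). DESeq2 and limma-voom likewise gave 0. At an unadjusted p under 0.05, 1 of the 10 genes (Il1b) and 2.50% of all genes tested (382) were called by edgeR, 433 genes by DESeq2 and 317 by limma-voom. The values of the groups did not overlap in 0 of the 10 genes, against 0.601% of all genes tested. The replicates were separate tumors by their titles, and nothing in the labels pairs a sgNT with a sgCda tumor.

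**Figure D2:**
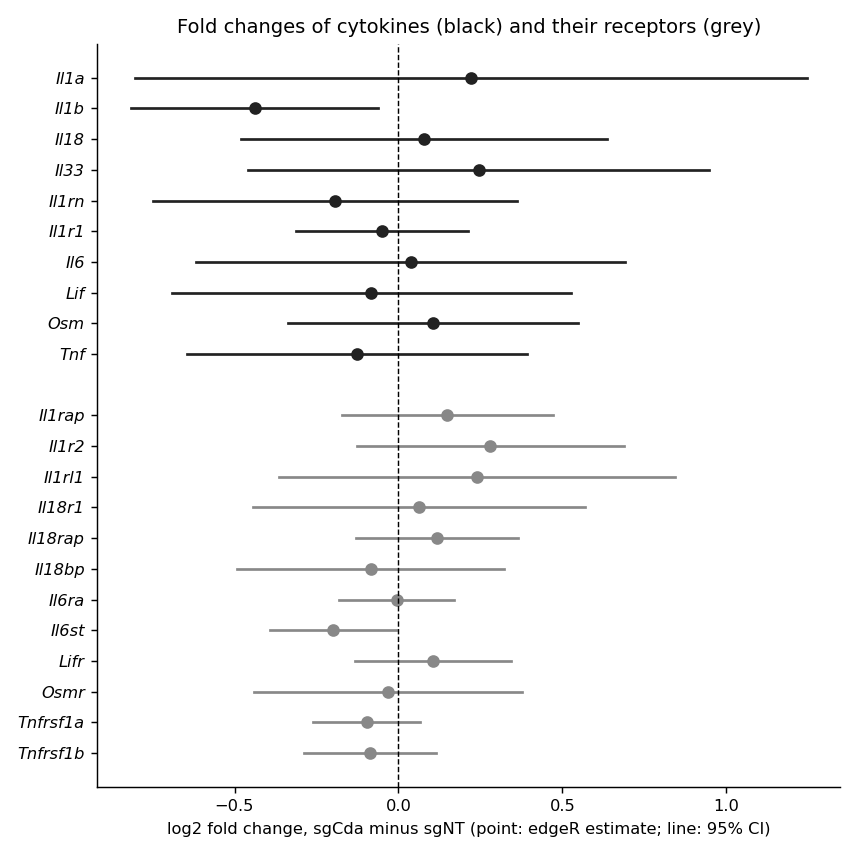
Fitted log2 fold change (sgCda minus sgNT, edgeR) with its 95% confidence interval for the 10 cytokine genes (black) and 12 receptor genes (grey). The interval excludes 0 for Il1b (−0.82 to −0.06) and Il6st (−0.39 to −0.01) among the 22 genes, before adjustment for multiple tests.

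Il1b, a cytokine made as a precursor and released after cleavage by caspase-1, was counted at 32.0, 19.9, 28.6, 22.5 and 23.8 CPM in sgNT replicates 1 to 5. The sgCda replicates 1 to 5 gave 20.9, 16.6, 13.1, 24.0 and 19.1 CPM. Thus all 5 sgCda tumors lay below the sgNT mean, but sgCda 4 reached into the middle of the sgNT range and sgCda 1 lay above the lowest sgNT tumor. The means were 25.4 ± 4.88 CPM in sgNT and 18.7 ± 4.18 CPM in sgCda (SD, n = 5 each). The log2 fold change was −0.44 (SE 0.17, 95% confidence interval −0.82 to −0.06; unadjusted p = 0.0264 and adjusted p = 0.9996, edgeR with Benjamini-Hochberg). Without sgNT 1, sgNT 3, sgCda 2 or sgCda 3 the unadjusted p was 0.0701, 0.0590, 0.0584 and 0.0523, respectively, in edgeR, and the lowest with 1 tumor left out was 0.00869 (without sgCda 4). On mouse chromosome 2 (129364570 to 129371139, GRCm38) Il1b shares 25 exon bases with Il1bos on the opposite strand, and the strand setting of the counting is not given in the sources used here.

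Il1a, the partner of Il1b that also acts as a membrane-bound and nuclear protein, gave far lower counts, 54 to 120 reads in sgNT and 28 to 163 in sgCda. Its levels were 4.05, 1.71, 1.98, 2.10 and 1.58 CPM in sgNT 1 to 5 and 3.09, 1.85, 0.783, 5.77 and 1.84 CPM in sgCda 1 to 5. Both the highest and the lowest tumor of the series were sgCda tumors (4 and 3), which enclosed every sgNT value. The log2 fold change of 0.22 had an SE of 0.47, and it became −0.27 without sgCda 4. Il1a also overlaps a neighbour, Gm14023, by 222 exon bases on the opposite strand (chr2:129299610-129309972).

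Il33, a nuclear alarmin released from damaged stromal and epithelial cells, was counted at 158, 164, 118, 89.1 and 157 CPM in sgNT 1 to 5. In sgCda 1 to 5 it stood at 162, 185, 53.8, 245 and 168 CPM. Of the 5 sgCda tumors, 4 exceeded the sgNT mean and sgCda 3 lay below every other tumor. The means were 137 ± 32.6 CPM in sgNT and 163 ± 69.1 CPM in sgCda (SD, n = 5 each). The log2 fold change was 0.24 (SE 0.32, 95% confidence interval −0.46 to 0.95; unadjusted p = 0.461, edgeR). Without sgCda 3 it was 0.47 (unadjusted p = 0.0301, adjusted p = 0.819, edgeR with Benjamini-Hochberg), and without sgCda 4 it was 0.05. The spread between sgCda tumors, 0.84 on the log2 scale, exceeded both that between sgNT tumors (0.38) and the median over all genes in sgCda tumors (0.23).

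Il18, the interferon-gamma-inducing cytokine that like Il1b needs caspase-1, showed the same 2 low tumors. Its values were 18.5, 17.4, 14.1, 10.4 and 14.9 CPM in sgNT 1 to 5 and 18.6, 19.8, 7.25, 19.9 and 14.2 CPM in sgCda 1 to 5. sgCda 3 was again the lowest of the series and sgNT 4 the second lowest, whereas sgCda 4 was the highest. The group difference of 0.08 on the log2 scale was smaller than its SE of 0.25.

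**Figure D3:**
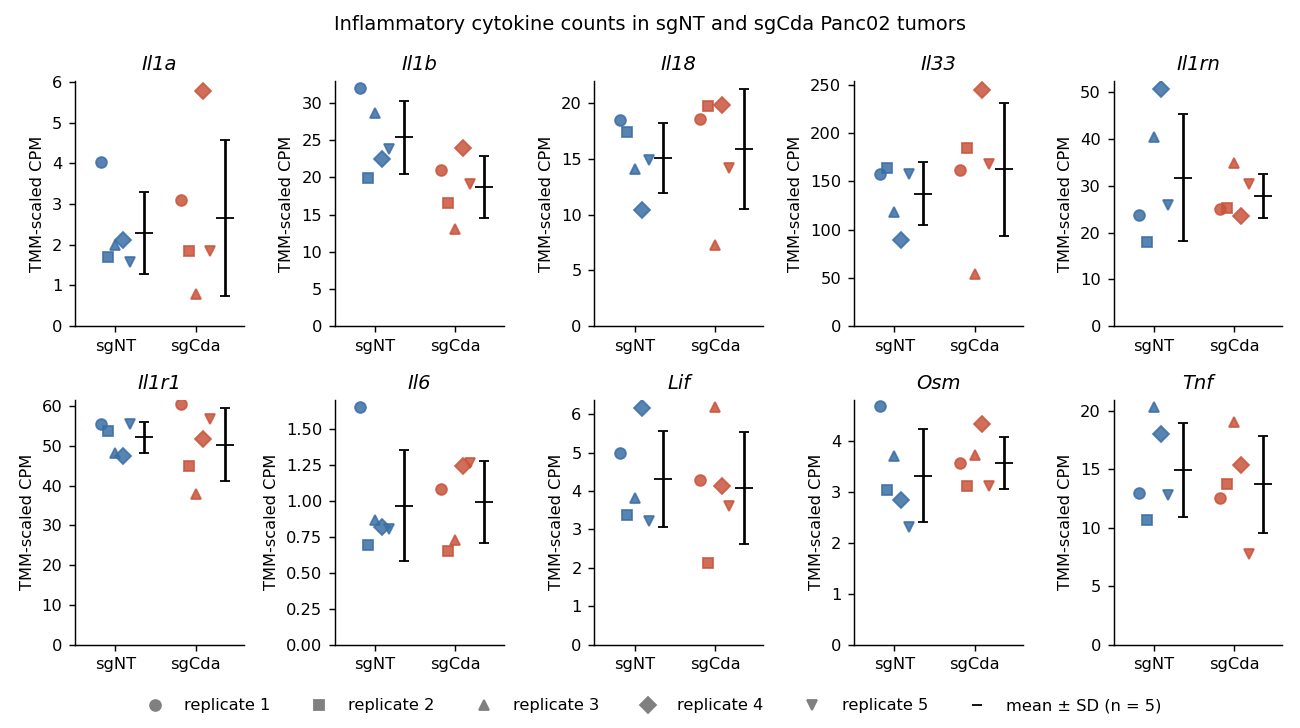
CPM of the 10 genes in the 5 sgNT (blue) and 5 sgCda (red) tumors, with 1 symbol per replicate number, and black bars for the mean ± SD. All 5 red points of Il1b (13.1 to 24.0 CPM) lie below its sgNT mean of 25.4 CPM, and sgCda 3 is lowest for Il33, Il18, Il1a, Il1b and Il1r1.

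Il1rn, the secreted antagonist of Il1r1, was counted at 23.7, 17.9, 40.5, 50.8 and 25.9 CPM in sgNT 1 to 5. In sgCda 1 to 5 it stood at 25.0, 25.3, 34.8, 23.5 and 30.3 CPM. The sgCda values all fell within the sgNT range, whose upper end was set by sgNT 3 and 4. The log2 fold change was −0.19 (SE 0.25), and it was 0.04 without sgNT 4. Il1r1, the receptor that both agonists and the antagonist bind, was the steadiest of the 10 genes. It ranged from 47.6 to 55.6 CPM in sgNT (median 53.9) and from 37.8 to 60.6 CPM in sgCda (median 51.8), with a log2 fold change of −0.05 (SE 0.12).

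The balance of antagonist to agonists was described as the ratio of Il1rn to the sum of Il1a and Il1b in CPM within each tumor. It was 0.656, 0.828, 1.32, 2.06 and 1.02 in sgNT 1 to 5 and 1.04, 1.38, 2.51, 0.790 and 1.45 in sgCda 1 to 5. The highest ratio was that of sgCda 3, followed by sgNT 4, and the groups overlapped over most of their range. On the log2 scale the ratio averaged 0.12 ± 0.64 in sgNT and 0.41 ± 0.62 in sgCda (SD, n = 5 each), a difference of 0.29 that was smaller than the spread between tumors of a group. Per kb of exon the ratio was below 1 in every tumor (0.227 to 0.867). That length was the merged exons of all annotated transcripts, 5535 bases for Il1rn against 1974 for Il1a and 1907 for Il1b. Which transcripts the tumors held was not tested, so the ratio per kb depends on this choice of length.

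Among the IL-6 family ligands, Il6 itself rested on 22 to 49 reads in sgNT and 24 to 40 in sgCda tumors. Its levels were 1.65, 0.695, 0.868, 0.817 and 0.804 CPM in sgNT 1 to 5 and 1.08, 0.653, 0.727, 1.24 and 1.27 CPM in sgCda 1 to 5. Apart from the highest tumor, sgNT 1, 3 sgCda tumors stood above the other sgNT tumors, sgCda 3 lay within their range and sgCda 2 just below it. Its log2 fold change was 0.04 (95% confidence interval −0.62 to 0.69), an interval that leaves room for a difference in either direction at this depth. Lif, a cytokine of pancreatic cancer and its stroma, was counted at 4.99, 3.38, 3.81, 6.16 and 3.22 CPM in sgNT 1 to 5 and at 4.29, 2.12, 6.18, 4.14 and 3.61 CPM in sgCda 1 to 5. sgNT 4 and sgCda 3, the tumors low in Il33 and Il18, were the 2 highest for Lif. Osm, a product of macrophages and neutrophils, ranged from 2.31 to 4.69 CPM in sgNT (median 3.03) and from 3.10 to 4.32 CPM in sgCda (median 3.56). The log2 fold changes of Lif and Osm were −0.08 (SE 0.28) and 0.11 (SE 0.20).

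Tnf, the macrophage and T cell cytokine that drives much of the same NF-kappaB program, was counted at 13.0, 10.7, 20.4, 18.0 and 12.8 CPM in sgNT 1 to 5. The sgCda tumors 1 to 5 gave 12.6, 13.8, 19.1, 15.4 and 7.78 CPM. High and low tumors occurred in both groups, with sgNT 3 highest and sgCda 5 lowest. The log2 fold change was −0.13 (SE 0.24, 95% confidence interval −0.65 to 0.39).

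The genes through which these cytokines act were read from 5 lists of 98 genes, 97 of which had a row and 87 of which passed the filter on low counts. None had an adjusted p under 0.05 (edgeR with Benjamini-Hochberg), 1 of the 87 had an unadjusted p under 0.05, 38 stood higher and 49 lower, and the median log2 fold change was −0.03. Of the 16 receptor genes tested, 9 stood higher and 7 lower. The 1 gene with an unadjusted p under 0.05 was Il6st, the gp130 chain that Il6, Lif and Osm share. Its levels were 218, 233, 215, 214 and 217 CPM in sgNT 1 to 5 and 227, 189, 164, 171 and 205 CPM in sgCda 1 to 5. In sgCda 2 to 5 it lay below every sgNT tumor, whereas sgCda 1 lay near the top of their range. The log2 fold change was −0.20 (SE 0.09, unadjusted p = 0.0419, edgeR), and it was −0.09 without sgCda 3 and 4 (unadjusted p = 0.234, edgeR), the 2 lowest tumors for Il6st. With 1 tumor left out at a time its log2 fold change ranged from −0.27 to −0.15 and its unadjusted p from 0.00570 (without sgCda 1) to 0.0935 (without sgCda 3) in edgeR, under 0.05 only without sgCda 1 or sgCda 5.

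The ligand-specific partners of gp130 had smaller differences. Il6ra, which binds IL-6, averaged 57.6 ± 4.38 CPM in sgNT and 57.4 ± 5.40 CPM in sgCda, Lifr 18.0 ± 2.55 and 19.3 ± 1.90 CPM, and Osmr 92.3 ± 10.3 and 90.3 ± 28.2 CPM (SD, n = 5 each). The log2 fold changes of Il6ra, Lifr and Osmr were −0.0053 (SE 0.08), 0.11 (SE 0.11) and −0.03 (SE 0.19). On the IL-1 side, the decoy receptor Il1r2 had a log2 fold change of 0.28 (SE 0.18) and the accessory chain Il1rap one of 0.15 (SE 0.15). All 5 sgCda tumors exceeded the sgNT mean of Il1r2 (7.002 to 10.4 CPM against 4.77 to 9.30 CPM), yet the groups overlapped. Il1rl1, the receptor of IL-33, ranged from 6.22 to 16.6 CPM in sgNT and only from 10.7 to 13.3 CPM in sgCda (log2 fold change 0.24, SE 0.27). The IL-18 receptor chains Il18r1 and Il18rap had log2 fold changes of 0.06 (SE 0.23) and 0.12 (SE 0.11), and the soluble inhibitor Il18bp one of −0.08 (SE 0.19). Both Tnf receptors were abundant and close between groups, Tnfrsf1a with 161 ± 13.9 CPM in sgNT and 151 ± 10.5 CPM in sgCda and Tnfrsf1b with 195 ± 19.8 and 184 ± 20.5 CPM (SD, n = 5 each).

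Of 13 further ligands of these families with a row, 8 were tested, 7 of which stood higher in sgCda and 1 lower, none with an unadjusted p under 0.05 (edgeR). Those with the smallest p were Clcf1, another gp130 ligand (log2 fold change 0.31, SE 0.23), and the IL-36 cytokine Il36g (0.22, SE 0.20). The other 5, Il36a, Il36b, Il1f10, Il11 and Cntf, did not pass the filter, with 0, 1, 1, 64 and 73 counts over all 10 tumors. Of 13 tested genes that process IL-1 family precursors, 5 stood higher and 8 lower. The calpain Capn1 had the smallest p among them (−0.10, SE 0.05) and the inflammasome sensor Nlrp1b the second smallest (0.43, SE 0.31), while Casp1, which cleaves IL-1 beta and IL-18, averaged 101 CPM in sgNT with a log2 fold change of −0.08 (SE 0.06).

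Of 25 signalling genes tested, 8 stood higher and 17 lower in sgCda tumors, with a median log2 fold change of −0.03 and 0 with an unadjusted p under 0.05 (edgeR). Over all 15299 genes tested, 8094 stood higher and 7205 lower. The kinase Ripk1, downstream of the Tnf receptor, averaged 51.0 ± 1.01 CPM in sgNT and 47.3 ± 2.03 CPM in sgCda (SD, n = 5 each), and Nfkb2 had a log2 fold change of −0.10 (SE 0.06). Ripk1 and the NF-kappaB subunit Rela, named here after their values were seen, were the 2 pathway genes whose groups did not overlap, both lower in sgCda, with log2 fold changes of −0.11 (SE 0.05) and −0.07 (SE 0.05). That is 2 of 87 genes, against 0.601% of all genes tested, and neither reached an unadjusted p of 0.05. Of 25 target genes tested, 9 stood higher and 16 lower. Socs3, the feedback inhibitor that Stat3 induces, gave 137 ± 16.5 CPM in sgNT and 120 ± 7.03 CPM in sgCda (SD, n = 5 each; log2 fold change −0.19, SE 0.09), and the collagenase Mmp13 a log2 fold change of −0.83 (SE 0.47). The neutrophil chemokine Cxcl1 and the growth factor Csf3, both induced by IL-1 and Tnf in many cells, did not pass the filter, with 88 and 4 counts over all tumors.

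The levels of the 10 genes were also compared with each other across tumors. Over all 45 pairs of genes, 28 correlations of log2 CPM were positive and 17 negative, 11 had an unadjusted permutation p under 0.05, and 1 kept an adjusted p under 0.05 for Pearson's r and 0 for Spearman's rho. The share of such pairs among all genes tested was not computed, so these counts do not set the 10 genes apart. The pair that kept an adjusted p under 0.05 was Il33 and Il18, with Pearson's r = 0.946 (permutation p = 0.00019, adjusted over 45 pairs 0.00855, 100000 resamples) and Spearman's rho = 0.842 (permutation p = 0.00397, adjusted 0.179). Taken as deviations from the group means the r was 0.950 (adjusted permutation p = 0.00742). Within sgNT it was 0.931 and within sgCda 0.956. Without the 2 tumors farthest from the median, sgNT 4 and sgCda 3, r was 0.676 (adjusted permutation p = 0.404), so the call rests on those tumors. Leaving out only sgNT 4 gave an r of 0.937 (adjusted exact permutation p = 0.0758) and only sgCda 3 an r of 0.860 (adjusted exact permutation p = 0.0730). Other genes followed each of the 2 more closely, up to r = 0.993 for Il33 (1110051M20Rik) and 0.984 for Il18 (Trpv1). sgCda 3 and sgNT 4, the lowest tumors for both genes, also lay furthest toward the same end of the largest axis of variation. The part of that axis in the correlation was not tested.

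Il1a and Il1b had an r of 0.679 over all tumors (adjusted permutation p = 0.182, rho = 0.636). As deviations from the group means, which removes the lower Il1b level of sgCda tumors, it was 0.886 (adjusted permutation p = 0.00742). That permutation shuffled the deviations across both groups and made no allowance for the removed means, so its p can be too small. Within the groups the r was 0.760 in sgNT and 0.967 in sgCda. Without sgCda 3 and 4, the tumors farthest from the median of Il1a, the r of the levels themselves was 0.533 (adjusted permutation p = 0.649). The r of the deviations was not computed without them. Il1rn gave negative values with the alarmins, none of which passed adjustment. Its r was −0.685 with Il18 (rho = −0.794, adjusted permutation p = 0.182 and 0.188) and −0.657 with Il33 (rho = −0.685, adjusted permutation p = 0.182 and 0.352), and without sgNT 3 and 4, farthest from its median, r was −0.729 and −0.626. With Il1b, its competitor for the receptor, Il1rn had an r of −0.02 (rho = −0.127). Lif and Il33 gave an r of −0.646 (rho = −0.576, adjusted permutation p = 0.190 and 0.395), which was −0.10 without sgNT 4 and sgCda 3. For Tnf and Il1r1 the r was −0.660 (rho = −0.770, adjusted permutation p = 0.182 and 0.188), and −0.732 without sgCda 2 and 3. All 10 genes share the same 10 libraries and scaling factors, which these correlations do not remove.

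**Figure D4:**
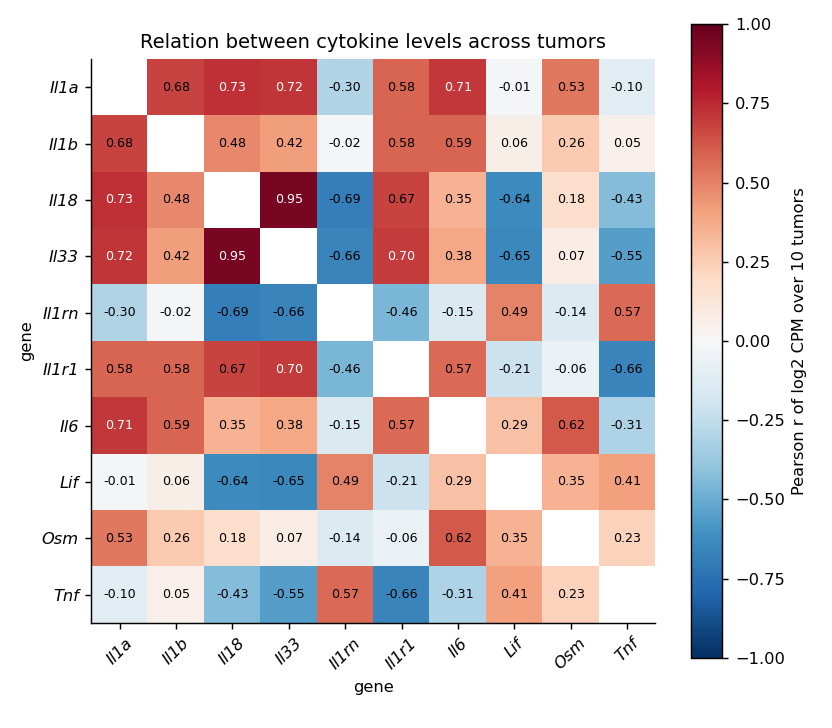
Pearson's r of log2 CPM over the 10 tumors for each pair of the 10 genes (red positive, blue negative, value in the cell). Il33 and Il18 give the highest value (0.95), and both run against Il1rn (−0.66 and −0.69) and Lif (−0.65 and −0.64).

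**Figure D5:**
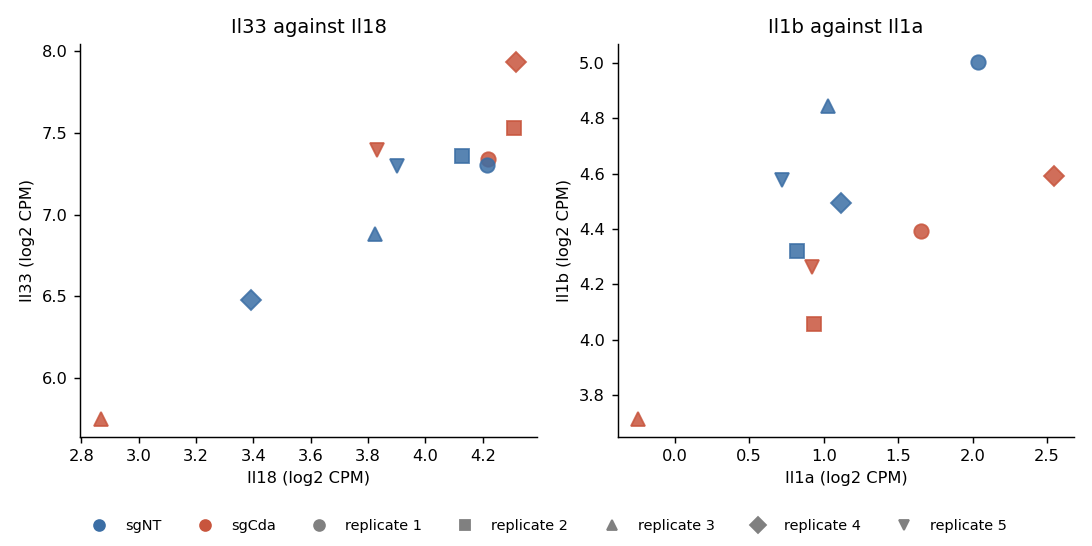
Log2 CPM of Il33 against Il18 (left) and of Il1b against Il1a (right), with 1 symbol per tumor, sgNT in blue and sgCda in red. sgCda 3 lies at the lower left of both panels, sgNT 4 lies next to it for Il33 and Il18, and in the right panel the red points lie below blue points of like Il1a level.

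Markers of cell types the tumors could hold were read beside these values. The neutrophil list (7 of 10 genes tested) had a mean log2 CPM of 2.20 to 2.94 in sgNT and 1.95 to 3.24 in sgCda, lowest in sgCda 3 and then sgNT 4, the tumors low in Il33 and Il18. Its defining granule and surface genes Ly6g, Ngp and Camp were near 0, with 17, 31 and 27 counts over all tumors. Correspondingly, r with the neutrophil list was 0.878 for Il33 (rho = 0.564, adjusted permutation p = 0.189 and 0.683) and 0.836 for Il18 (rho = 0.515, adjusted permutation p = 0.189 and 0.683), and without sgNT 4 and sgCda 3 it was 0.269 and −0.07. For Il1r1 it was 0.796 (rho = 0.709, adjusted permutation p = 0.189 and 0.683), 0.482 without those tumors and 0.857 as deviations from group means (adjusted permutation p = 0.0565). The T cell list was highest in sgCda 3 (5.79 against 4.28 to 5.36 in the other tumors) and gave an r of −0.774 with Il1r1 (rho = −0.588, adjusted permutation p = 0.189 and 0.683), −0.736 with Il33 (rho = −0.564, adjusted permutation p = 0.269 and 0.683) and 0.716 with Tnf (rho = 0.661, adjusted permutation p = 0.295 and 0.683). Without sgCda 3 and 5, farthest from the median of the T cell list, these were −0.465, −0.468 and 0.423. The endothelial list gave an r of −0.658 with Il33 (rho = −0.842, adjusted permutation p = 0.347 and 0.373) and 0.631 with Lif (rho = 0.418, adjusted permutation p = 0.430 and 0.732). Without sgCda 2 and 4 these were −0.478 and 0.602. The macrophage list gave an r of −0.640 with Il33 (rho = −0.588, adjusted permutation p = 0.430 and 0.683), and −0.13 without sgCda 3 and 4. Among 100 pairs of a gene with 1 of 10 marker lists, 0 had an adjusted permutation p under 0.05 (10 had an unadjusted one), and the part of these cell types in the cytokine levels was not tested.

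Levels of the lists other than those of neutrophils and T cells are given as the range of their mean log2 CPM. That scale does not rank lists of different genes. Macrophage genes (10 of 10 tested) ranged from 8.01 to 8.43 in sgNT and 7.88 to 8.51 in sgCda, fibroblast genes from 6.72 to 7.87 and 6.44 to 7.47, and monocyte genes from 6.43 to 7.05 and 6.42 to 7.04. Endothelial genes ranged from 3.21 to 3.75 in sgNT and 2.99 to 3.73 in sgCda, epithelial genes from 3.30 to 3.74 and 3.37 to 3.94, mast cell genes from 1.96 to 3.95 and 2.54 to 3.70, and adipocyte genes from 0.88 to 4.02 and 0.91 to 5.40. Skeletal muscle genes varied most, from −1.99 to 5.56 in sgNT and −1.996 to 7.50 in sgCda, highest in sgCda 3, and had an r of 0.778 with Tnf (rho = 0.673, adjusted permutation p = 0.189 and 0.683; r = 0.571 without sgNT 2 and sgCda 5). Of 7 pancreatic acinar genes 1 passed the filter, and the others had 0 (Amy2a5) to 24 (Prss2) counts over all 10 flank tumors. Of 8 keratinocyte genes, 2 passed.

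Finally, the genes whose levels followed each cytokine most closely were listed over 12952 genes and the 10 tumors, as a description without a test, since the highest of many correlations is high by selection. For Tnf they were the chemokine Ccl3 (r = 0.943), the common cytokine receptor chain Il2rg (0.932) and Ubd (0.925). Il1rn was followed by the T cell costimulatory receptor Tnfrsf9 (0.965), Shb (0.963) and Wars (0.959), which kept an r of 0.937, 0.989 and 0.870 without the 2 tumors farthest from the median of Il1rn. Il33 was followed by 1110051M20Rik (0.993), Tmem44 (0.988) and Wwox (0.986), and Il18 by Trpv1 (0.984), Rgmb and Zbtb4 (0.980 each). Il1b was followed by Apol7a (0.826) and Prag1 (0.825), and Il1a was closest to Xrcc4 (0.930), Foxj2 (0.915) and Txndc9 (0.912). The receptor Il1r1 was closest to Zfp820 (0.930), Zfp951 (0.929) and Snx13 (0.923). For Il6 the genes were Plk2 (0.943), Gpihbp1 (0.897) and Auts2 (0.834), for Lif Epha2 (0.947), E2f8 (0.929) and Zwint (0.927), and for Osm Rsbn1 (0.909), Lig4 (0.903) and Brpf1 (0.877).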

How the data were processed

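Total RNA of 10 s.c. Panc02 tumors was isolated with TRIzol, and polyadenylated RNA was made into stranded libraries by the authors, who mapped trimmed single reads to GRCm38 with the TopHat and Bowtie pipeline. The submitters' processing notes name FastQC 0.11.5, Bowtie2, HTSeq and the build mm10. HTSeq assigned the reads to genes, and the values used here are those counts as deposited, whole numbers without normalization. The strand setting and annotation release are not given in the sources used here. The 5 HTSeq summary rows were dropped (reads without a feature were 10.3% to 18.4% of uniquely aligned reads).

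Genes were filtered with filterByExpr (minimum count 10, total 15), scaled with TMM factors and compared by edgeR's quasi-likelihood test (edgeR 4.0.16, R 4.3.3) over all 10 tumors without a covariate, with Benjamini-Hochberg adjustment over the 15299 genes tested. The code was tested on simulated data. Log2 CPM used a prior count of 2. Lengths and positions came from GENCODE M21 (GRCm38), and promoters from RefSeq (9 of 10 genes, Osm had none). Correlations used permutation tests (SciPy 1.17.1). Those on deviations shuffled values across both groups without allowance for the removed group means, so their p can be too small. Intervals cover the spread between these tumors. Alternatives were DESeq2 1.42.0, limma-voom (limma 3.58.1), other scalings and filters, a replicate block and each tumor left out.

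Group and replicate number of each tumor were read from its title. The labels do not say whether replicate numbers pair the tumors. The correlation of same-numbered deviations from the group means was −0.03, −0.02, 0.33, −0.43 and 0.34 for numbers 1 to 5, which does not settle it. Named genes were the 10 genes, Cda, 12 receptor genes and, of each other pathway list, those with an unadjusted p under 0.05 or otherwise the 2 with the smallest p, plus the 3 most alike genes of each (for Il1b not all are reported here). The genes and lists were chosen with earlier results of these data known. A symbol was found for 32608 of the 37417 identifiers, and Il36rn had no match.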

Additional observations from a re-analysis of the deposited data

Results flagged for a closer look

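In 92 groups of 5 tumors checked for a value far from the rest of its group, 8 values stood apart. Chance alone marks about 1 in 20 groups of independent, normally distributed values. The groups here were many measures of the same tumors, some of them correlated, and Rela was chosen after its values were seen. The 8 values can therefore not be weighed against that rate. Il33 in sgCda 3 was 5.75 on the log2 CPM scale, against 7.34 to 7.93 in the other sgCda tumors. In sgNT 1, Il6 was 0.78 on that scale, against −0.41 to −0.11 in the other sgNT tumors. Il6st in sgNT 2 was 7.87, against 7.74 to 7.77, and Rela in sgNT 3 was 6.87, against 6.77 to 6.80. The share of mitochondrial counts of sgCda 4 was 5.82%, against 3.48% to 3.81% in the other sgCda tumors. The T cell list of sgNT 3 had a mean log2 CPM of 5.36, against 4.74 to 4.88 in the other sgNT tumors. The neutrophil list was low in sgNT 4 (2.20, against 2.77 to 2.94) and in sgCda 3 (1.95, against 2.91 to 3.24). The part of these tumors' depth or cell content in their cytokine values was not tested.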

How the results depend on the processing

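No gene had an adjusted p under 0.05 under any of the 18 alternatives of the fit. Il1b stayed lower (−0.54 to −0.33) and Il33 higher (0.05 to 0.47) in all 18, while the direction of the other 8 cytokine genes turned at least once. Leaving out 1 tumor at a time gave log2 fold changes of −0.27 to 0.52 for Il1a (negative without sgCda 4), −0.34 to 0.035 for Il1rn (positive without sgNT 4), −0.12 to 0.036 for Il1r1 (positive without sgCda 3), −0.033 to 0.26 for Il18 (negative without sgNT 4, sgCda 2 or sgCda 4), −0.066 to 0.31 for Il6 (negative without sgNT 2, 4 or 5 or sgCda 4 or 5), −0.28 to 0.085 for Lif (positive without sgNT 4 or sgCda 2) and −0.28 to 0.022 for Tnf (positive without sgNT 3 or sgCda 5). Of the receptors, Il18r1 ranged from −0.11 to 0.23, Il18bp from −0.17 to 0.083, Il6ra from −0.049 to 0.034 and Osmr from −0.22 to 0.10. Without sgCda 3 and 4 (chosen after seeing the data for the genes outside the 10), Il1a was −0.014, Il1r1 0.050, Osm −0.024, Il18r1 −0.067, Il18rap −0.030, Clcf1 −0.076 and Nlrp1b −0.0051; Il1a was also −0.0054 with limma-voom and Il6ra 0.0036 with library totals. Genes with an unadjusted p under 0.05 numbered 830 without a filter (26302 genes tested) and 280 to 747 with 1 tumor left out, highest without sgCda 3. Among the 10 genes they numbered 0 to 1 (0 without sgNT 1, sgNT 3 or sgCda 2), and without sgCda 3 the 1 gene was Il33 and not Il1b. In the pathway lists they numbered 2 with DESeq2 size factors, without a filter, with at least 10 counts in every tumor or with the replicate block, 4 with DESeq2, 3 without sgCda 3 and 4, and 0 to 4 with 1 tumor left out. Pairs with an adjusted permutation p under 0.05 numbered 2 as deviations from group means, 0 without the 2 farthest tumors, 0 without sgCda 3 and 4, and 0 to 2 with 1 tumor left out (0 without sgNT 4 or sgCda 3, 2 without sgCda 5); pairs of a gene with a marker list numbered 0 to 1 (1 without sgCda 1). The cause of these shifts was not tested. The replicate block, with numbers that no label says pair the tumors, gave 325 genes with an unadjusted p under 0.05 against 382 without it, and 2 of 5 numbers matched best with their own number.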
